A study of Homo sapiens with 7 samples.

Results

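Isolated MYCN intervals were defined as the bound intervals of Kelly neuroblastoma cells that lay more than 100 kb from the next interval on each side of the same chromosome. They were taken from chromosomes 1 to 22 after summits that share an interval had been collapsed, and 2147 of the 46714 intervals on these chromosomes met the rule, or 4.60% (exact 95% CI 4.41 to 4.79). The whole list, with intervals outside chromosomes 1 to 22 included, held 47765 intervals. Members were chosen by position alone, that is, by where MYCN peaks had been called. Height, width and number of summits were not used, but the positions come from the same libraries as those measures.

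Sites were mapped by ChIP-seq, in which DNA bound by an immunoprecipitated protein is sequenced, in Kelly, an established human neuroblastoma cell line with an amplified MYCN gene. Resistant Kelly cells, which withstand the ALK inhibitor TAE684, were given 1 µM TAE684 for 48 h, and sensitive Kelly cells were given DMSO for 48 h. The labels list 2 MYCN ChIP and 2 input samples of resistant cells, and 2 MYCN ChIP samples and 1 input sample of sensitive cells. All groups come from this 1 line, and both ChIP samples of a state share 1 peak list. The list of the resistant cells was identical to that of the sensitive cells in 64657 of 64657 rows and carried its peak names throughout, so every value below refers to sensitive, DMSO-treated cells, and the states were not compared. There is no replicate value behind any number, so no p-value is given. The intervals in brackets are exact binomial intervals for shares and order-statistic intervals for medians. They cover counting error only.

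MYCN is a basic helix-loop-helix leucine zipper protein that binds DNA together with MAX, most tightly at the E-box motif. When it is abundant, as in MYCN-amplified neuroblastoma, it is known to occupy the promoters of most active genes and, in addition, enhancers that other factors have opened. Active promoters cluster in gene-dense parts of chromosomes, while gene-poor stretches hold few of them. The list is on the build hg19. The gene tables and promoter sequences at hand are on GRCh38, so the isolated sites are given by position, without gene names and without sequence.

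Isolated MYCN sites were spread over wide, sparsely bound stretches of the genome. The median isolated interval lay 155 kb from its nearer neighbour, with quartiles of 119 and 227 kb, and 316 kb from the farther one. The other intervals lay a median of 5.09 kb from their nearest neighbour. Distances of more than 200 kb were found for 676 of the isolated intervals, of more than 500 kb for 119 and of more than 1 Mb for 12. The stretches between the neighbours of isolated intervals added up to 1166 Mb, or 41.7% of the 2792 Mb from the first to the last interval of each chromosome. The isolated intervals covered 809 kb, which is 4.21% of all sequence under intervals. These lengths include unmappable sequence, and 16 isolated intervals bordered a gap of more than 3 Mb.

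The isolated intervals nearest to the limit lay 100020, 100049 and 100083 bp from a neighbour, on chromosomes 1, 10 and 12, and had fold enrichments of 6.04, 3.45 and 6.32. The intervals just short of the limit lay 99903, 99815 and 99805 bp from a neighbour, on chromosomes 10, 12 and 3, and had fold enrichments of 8.75, 11.0 and 9.39. The limit thus cuts through a continuous range of distances.

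Isolated sites had slightly higher fold enrichment than the rest, although fewer ChIP fragments covered them. Fold enrichment is the authors' ratio of ChIP signal to local background at a summit, and each interval was represented by its summit of highest fold. Its median was 6.53 in isolated intervals (95% CI 6.32 to 6.64) and 5.74 in the other intervals (95% CI 5.71 to 5.80). The quartiles were 5.01 and 9.19 in isolated intervals and 4.20 and 8.13 in the others. The lowest value was 2.25 in isolated intervals and 1.41 in the others, and the highest was 39.7 in isolated intervals and 57.2 in the others. The 2 sets overlapped over nearly their whole range. Fold enrichments under 4 occurred at 227 isolated intervals, or 10.6% (95% CI 9.30 to 12.0), and at 21.4% of the others (95% CI 21.0 to 21.8), against 20.9% of all intervals on these chromosomes. Fold enrichments of 10 or more occurred at 432 isolated intervals, or 20.1% (95% CI 18.4 to 21.9), and at 14.7% of the others (95% CI 14.4 to 15.0), against 14.9% of all intervals. Those of 20 or more occurred at 37 isolated intervals, or 1.72% (95% CI 1.22 to 2.37), and at 0.976% of the others (95% CI 0.887 to 1.07), against 1.01% of all.

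The number of ChIP fragments over a summit, recovered from the deposited fold enrichment and p-value, went the other way. Fold was taken as this number times 0.641, plus 1, divided by the local background plus 1. The fragment numbers are printed unscaled, so dividing them by the background does not give the fold. The fragment number had a median of 43 in isolated intervals (95% CI 41 to 45) and 63 in the others (95% CI 63 to 64). Fewer than 30 fragments covered 593 isolated intervals, or 27.6% (95% CI 25.7 to 29.6), and 11.7% of the others, against 12.4% of all intervals. At least 100 fragments covered 390 isolated intervals, or 18.2% (95% CI 16.6 to 19.9), and 28.3% of the others, against 27.8% of all. The −log10 q of the represented summit had a median of 13.4 in isolated intervals (95% CI 12.3 to 14.2) and 15.8 in the others (95% CI 15.7 to 16.0). Weakly supported calls were about as frequent in both sets: the highest −log10 q stayed under 5 in 9.64% of isolated intervals (95% CI 8.43 to 11.0) and in 9.50% of the others (95% CI 9.23 to 9.77), against 9.5% of all.

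**Figure D1:**
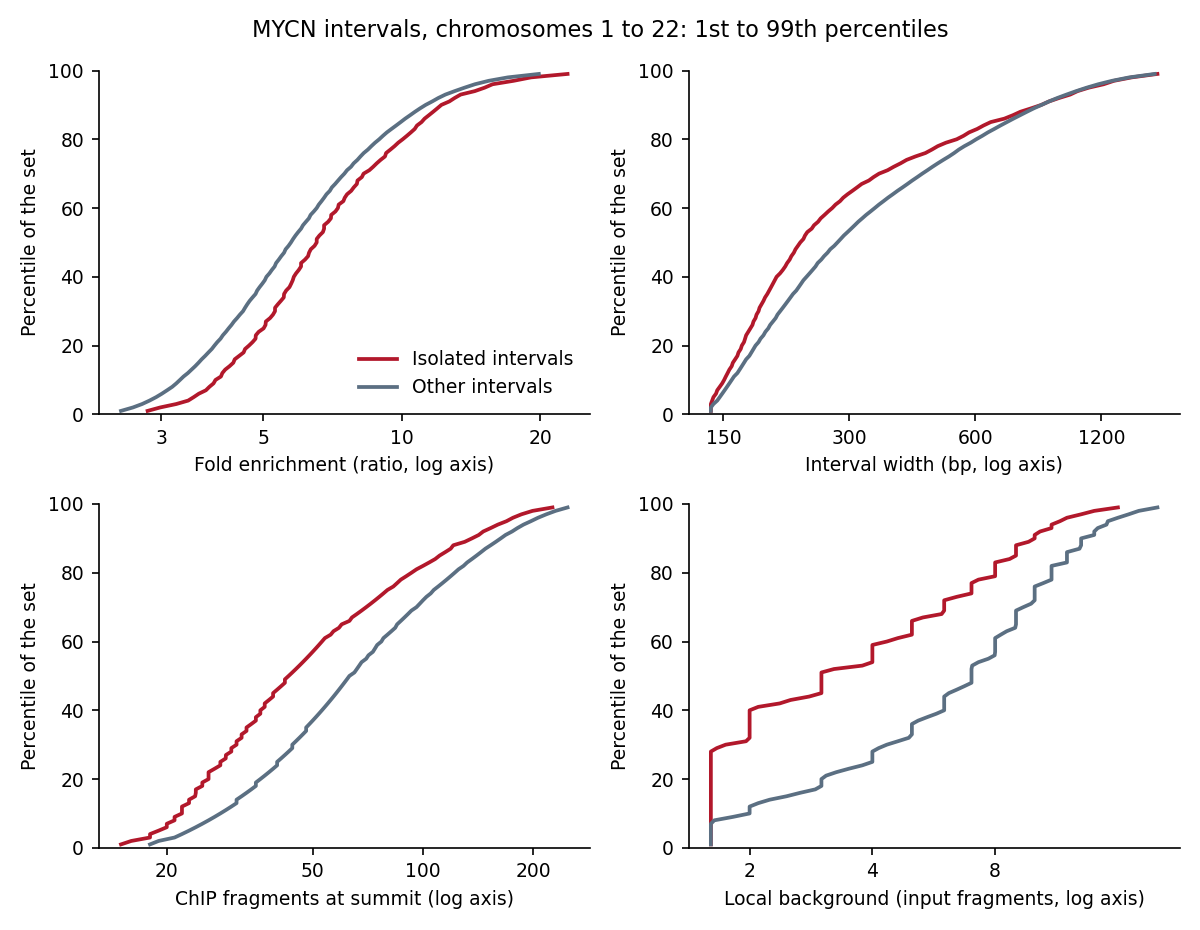
Percentiles 1 to 99 of fold enrichment, interval width, ChIP fragments and local background (each on a log axis) for the 2147 isolated intervals in red and the 44567 other intervals in grey. The isolated curve lies to the right for fold enrichment (medians 6.53 and 5.74) and to the left for ChIP fragments (43 and 63) and background (3.0 and 7.0). The width curves meet near 900 bp.

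The higher fold enrichment of isolated sites went with a low input background. The local background is the number of input fragments expected over the summit, and its genome-wide mean, 1.61, is also the lowest value the peak caller used. Its median was 3.0 fragments in isolated intervals (95% CI 3.0 to 3.36) and 7.0 in the others. The lowest value stood behind 619 isolated intervals, or 28.8% (95% CI 26.9 to 30.8), and 7.83% of the others (95% CI 7.58 to 8.08), against 8.8% of all intervals. At most 4 input fragments were found at 1272 isolated intervals, or 59.2% (95% CI 57.1 to 61.3), and at 28.4% of the others, against 29.8% of all. More than 8 were found at 363 isolated intervals, or 16.9% (95% CI 15.3 to 18.6), and at 38.7% of the others, against 37.7% of all. The background divides the fold enrichment, and it also sets how many ChIP fragments a site needs to be listed. Copy number, which moves input and ChIP together, was not measured, and its part in these values was not tested.

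Within classes of local background, the difference in fold enrichment was found at the higher backgrounds. At the lowest background, the median fold was 6.78 in the 619 isolated intervals (95% CI 6.53 to 7.03) and 6.78 in the 3490 others (95% CI 6.78 to 7.03), and both had a median of 26 ChIP fragments. Above it and up to 4 input fragments, the medians were 6.48 in 653 isolated intervals (95% CI 6.18 to 6.74) and 6.48 in 9157 others (95% CI 6.36 to 6.53). In these low-background classes the medians of isolated and other sites were thus level. From 4 to 8 input fragments, the median fold was 6.25 in 512 isolated intervals (95% CI 5.82 to 6.67) and 5.34 in 14662 others (95% CI 5.29 to 5.38). Above 8, it was 6.12 in 363 isolated intervals (95% CI 5.68 to 6.44) and 5.30 in 17258 others (95% CI 5.25 to 5.36). In these classes the isolated sites also had more ChIP fragments, with medians of 68 and 113 in isolated intervals and 58 and 104 in the others. The median background still differed within these classes, at 6 and 10 in isolated intervals and 6.16 and 11 in the others. The part of this in the fold difference was not tested.

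The shape of the intervals followed the same division. Over all backgrounds, isolated intervals were narrower, with a median of 229 bp (95% CI 223 to 236) and 281 bp in the others (95% CI 278 to 283). A width under 200 bp was found at 840 isolated intervals, or 39.1% (95% CI 37.1 to 41.2), and at 28.0% of the others, against 28.5% of all intervals. A single summit was found in 1726 isolated intervals, or 80.4% (95% CI 78.6 to 82.1), and in 76.3% of the others (95% CI 75.9 to 76.7), against 76.5% of all. Above a background of 8 input fragments these differences turned round. There the median width was 608 bp in isolated intervals (95% CI 554 to 643) and 433.5 bp in the others (95% CI 427 to 440). A single summit was found in 54.8% of these isolated intervals (95% CI 49.5 to 60.0) and in 66.1% of the others (95% CI 65.4 to 66.8). From 4 to 8 input fragments, the median width was 343.5 bp in isolated intervals and 268 bp in the others, and a single summit was found in 66.4% of isolated intervals (95% CI 62.1 to 70.5) and 76.8% of the others (95% CI 76.1 to 77.5). At the lowest background the isolated intervals were instead the slightly narrower ones, with 186 bp (95% CI 181 to 190) and 195 bp in the others (95% CI 192 to 197).

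**Figure D2:**
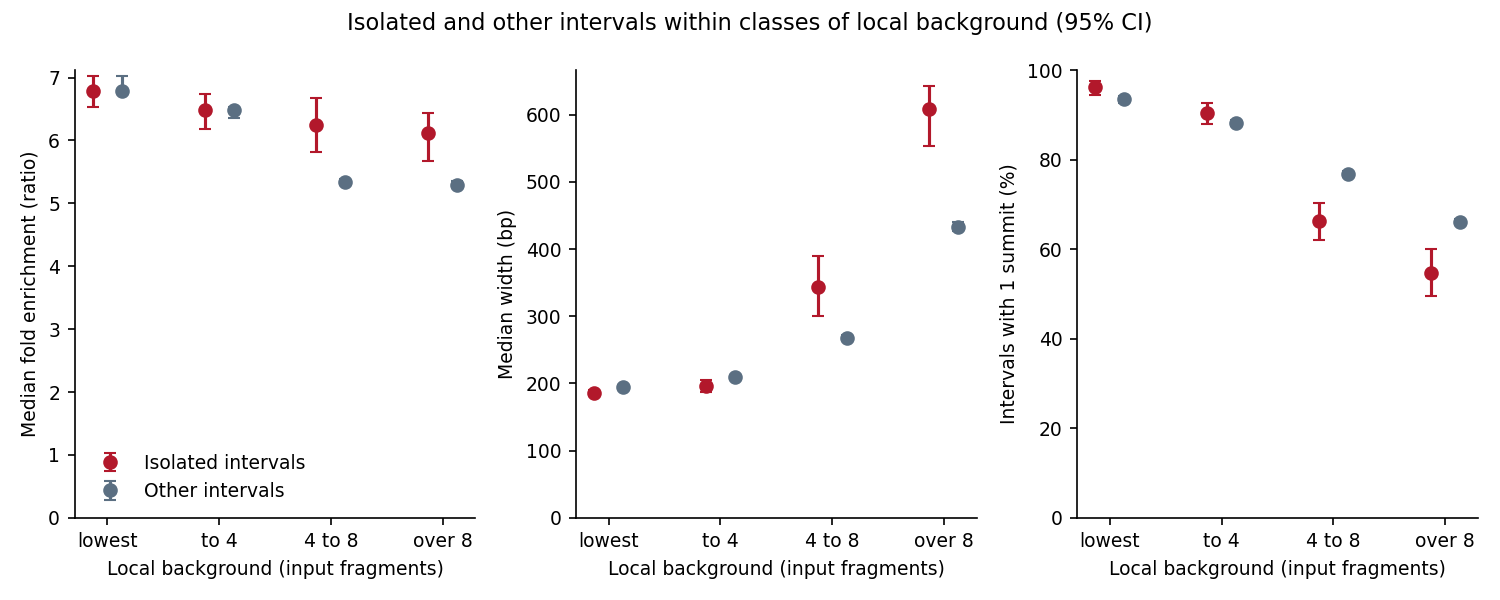
Median fold enrichment, median width and percent of intervals with 1 summit (points, with 95% intervals) for isolated intervals in red and other intervals in grey, in 4 classes of local background in input fragments. In the lowest class the fold medians are both 6.78, while above 8 input fragments isolated intervals show 6.12 against 5.30 and widths of 608 against 433.5 bp.

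Among intervals with a single summit, the difference in fold at higher backgrounds was smaller. From 4 to 8 input fragments the median was 5.19 in 340 isolated intervals (95% CI 4.92 to 5.46) and 4.94 in 11258 others (95% CI 4.89 to 4.98), where the interval of the isolated set reached into that of the others. Above 8 it was 4.89 in 199 isolated intervals (95% CI 4.46 to 5.34) and 4.53 in 11415 others (95% CI 4.47 to 4.59), again with overlapping intervals. In these 2 classes isolated intervals had several summits more often, as given above, and the part of this in the fold difference was not tested.

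Isolation did not mean a small binding site in every case. A width of at least 1000 bp was found at 155 isolated intervals, or 7.22% (95% CI 6.16 to 8.40), and at 6.83% of the others (95% CI 6.60 to 7.07), against 6.85% of all intervals. These wide isolated sites had a median fold of 9.92 (95% CI 9.01 to 10.7), against 9.06 in other intervals of that width (95% CI 8.93 to 9.19), with a median background of 8.54 input fragments in isolated intervals and 10 in the others. At the other end, isolated intervals under 200 bp had a median fold of 5.59 (95% CI 5.55 to 5.80) over a background of 2.0, and the others of that width had 4.58 (95% CI 4.57 to 4.62) over a background of 4.34. The 846 isolated intervals from 200 to under 500 bp and the 306 from 500 to under 1000 bp lay between these, with median folds of 7.02 and 7.93. The median number of ChIP fragments over the 4 width classes, from narrow to wide, was 28, 51, 110 and 143 in isolated intervals, and 37, 65, 121 and 156 in the others. Coverage was thus higher in wider intervals in both sets.

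Isolated intervals with several summits had a spacing of summits close to that elsewhere. There were 253 isolated intervals with 2 summits, 101 with 3 and 67 with 4 or more, or 11.8%, 4.70% and 3.12% of the isolated set. In the other intervals these shares were 15.9%, 5.20% and 2.60%, and over all intervals they were 15.7%, 5.18% and 2.62%. Neighbouring summits of 1 interval lay a median of 303.5 bp apart in isolated intervals (quartiles 234 and 393 bp) and 298 bp apart in the others (quartiles 231 and 386 bp). The second strongest summit reached a median of 0.70 of the fold of the strongest in isolated intervals and 0.704 in the others. With 4 or more summits, the median fold was 10.4 in isolated intervals (95% CI 9.44 to 11.1) and 8.75 in the others (95% CI 8.47 to 9.02). With 1 summit it was 6.18 in isolated intervals (95% CI 6.04 to 6.32) and 5.34 in the others (95% CI 5.31 to 5.38).

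The medians of background and ChIP fragments were already lower at distances short of 100 kb. The median fold enrichment was 5.38 for intervals within 1 kb of another, 5.55 from 1 to 10 kb, 5.97 from 10 to 30 kb and 6.38 from 30 to 100 kb. Within the isolated set it was 6.53 from 100 to 200 kb (1471 intervals), 6.53 from 200 to 500 kb (557 intervals) and 6.11 beyond 500 kb (119 intervals, 95% CI 5.73 to 6.78). Fold thus differed most among intervals that were not isolated. The median number of ChIP fragments was 67 within 1 kb and 55 from 30 to 100 kb, and in the isolated set it was 48, 39 and 34 in order of distance. The median background was 8 input fragments within 1 kb and 5 from 30 to 100 kb, and in the isolated set it was 4, 2 and 2. Folds of 10 or more occurred at 19.9% of the isolated intervals from 100 to 200 kb (95% CI 17.9 to 22.1), at 22.3% from 200 to 500 kb (95% CI 18.9 to 25.9) and at 12.6% beyond 500 kb (95% CI 7.23 to 19.9). The last share rests on 15 intervals. A single summit was found in 78.2%, 85.6% and 82.4% of the isolated intervals of these 3 distances.

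**Figure D3:**
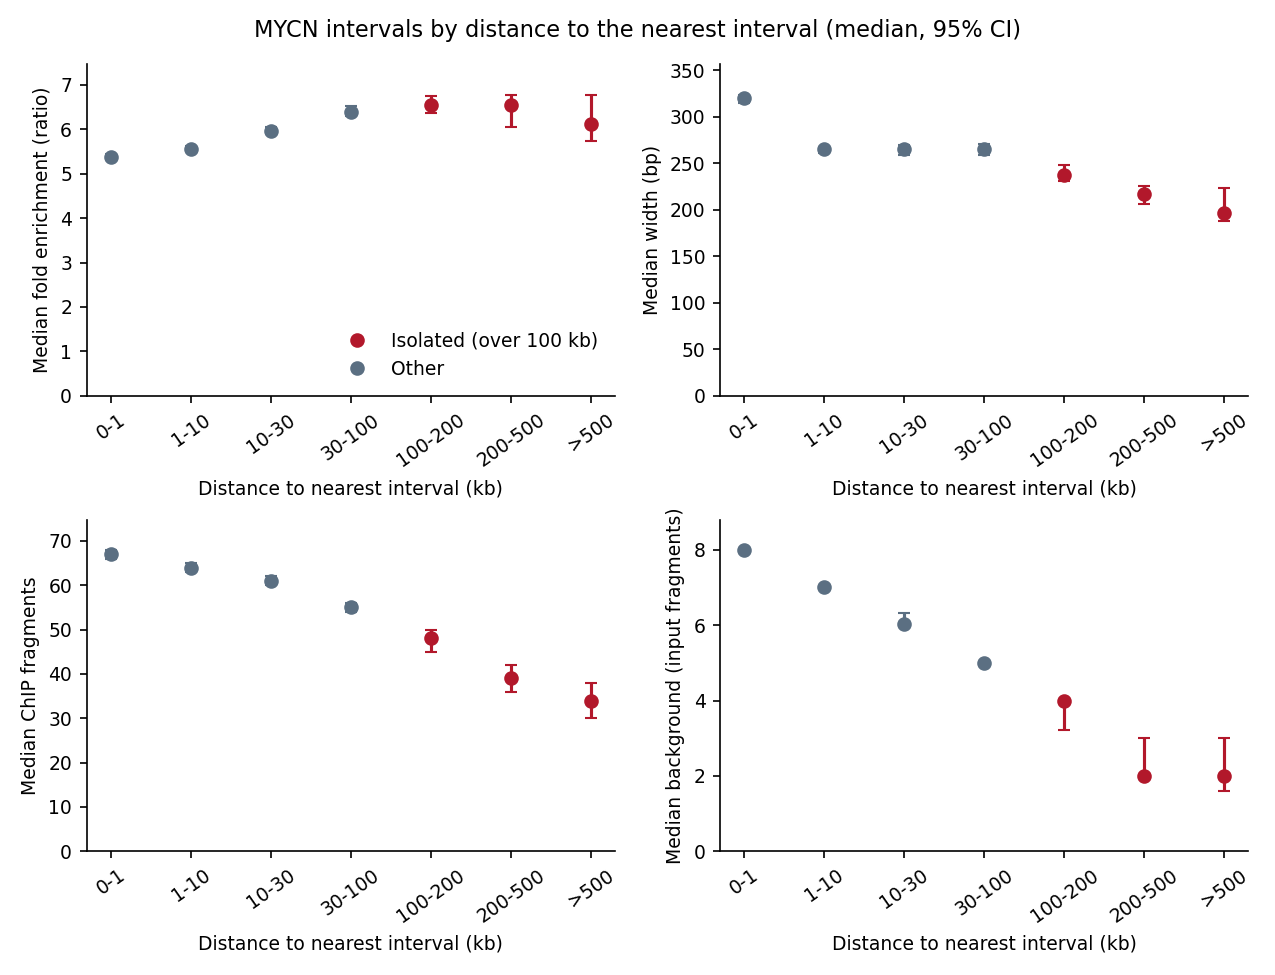
Median fold enrichment, width, ChIP fragments and local background (points, with 95% order-statistic intervals) by distance to the nearest interval in kb, with isolated intervals in red and the others in grey. Fold goes from 5.38 within 1 kb to 6.53 at 100 to 200 kb, while ChIP fragments go from 67 to 48 and, beyond 500 kb, to 34.

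The strongest isolated sites reached fold enrichments seen at only a few sites of the whole list, but their fragment numbers were less extreme. Among the 10 of highest fold, only the fragment numbers 193 and 267 exceeded 163, the 90th percentile of the intervals that were not isolated. The highest fold enrichment, 39.7, was found on the long arm of chromosome 3 from 106059946 to 106060344, with 160 ChIP fragments over the lowest background. This interval ranked 10th by fold among all intervals on chromosomes 1 to 22. Its neighbours were 457 kb before it and 899 kb after it. The next, with a fold of 36.5, lay on chromosome 7 from 126124005 to 126124498 and was covered by 147 ChIP fragments. A site on chromosome 5 from 160971321 to 160971659 reached 33.8 with 136 fragments, and the nearest interval before it was 1035 kb away. All 3 stood over the lowest background, so their folds follow directly from their fragment numbers.

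The site on chromosome 21 from 29073406 to 29073699 had a fold of 31.8 over a background of 2.1 input fragments. The site on chromosome 6 from 165462871 to 165463192 had a fold of 31.2 over a background of 3.0, with 193 ChIP fragments. The site on chromosome 13 from 97185601 to 97186137 had 120 ChIP fragments and a fold of 29.9. The same values were found on chromosome 22 from 34810846 to 34811137, in 1 of only 9 isolated intervals of that chromosome. A site on chromosome 11 from 109514901 to 109515231 had a fold of 29.7, and one on chromosome 9 from 25964262 to 25964612 had 29.2. The last of the 10, on chromosome 9 from 108006422 to 108007374, differed from the rest. It was 953 bp wide, had a fold of 28.7 over a background of 5.0, and held 267 ChIP fragments, the most of any isolated interval, against a highest value of 280 in the whole list. All 10 of these sites had a single summit, as did 80.4% of the isolated set, and 7 of the 10 stood over the lowest background.

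Isolated intervals were well represented among the strongest folds and less so among the best covered sites. Of the 100 intervals of highest fold, 10 were isolated (95% CI 4.90 to 17.6%), and of the highest 1000, 72 were (7.20%, 95% CI 5.68 to 8.98), where 4.60% of all intervals were isolated. Of the 1000 intervals with most ChIP fragments, 22 were isolated (95% CI 1.38 to 3.31%), and of the top 100 by fragments 0 were (exact 95% upper limit 3.62%). Of the 1000 intervals of highest −log10 q, 29 were isolated (2.90%, 95% CI 1.95 to 4.14). Of the 1000 widest intervals, 49 were isolated (4.90%, 95% CI 3.65 to 6.43). The background divides the fold, and its part in these ranks was not tested.

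Besides the site on chromosome 9, the isolated intervals with most ChIP fragments stood over backgrounds of 9 to 13. The median background was 3.0 in isolated intervals and 7.0 in the others. On chromosome 7 from 12726000 to 12727354, 261 fragments stood over a background of 13 and gave a fold of 12.0. On chromosome 2 from 197664157 to 197664666, 254 fragments over a background of 12 gave a fold of 12.6. On chromosome 15 from 57025115 to 57026211, 253 fragments gave a fold of 16.3. The same number gave 13.6 on chromosome 20 from 18118259 to 18119074. These sites had 1 or 2 summits each.

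The 5 isolated intervals with most summits were wide, at 2039 bp or more. Their nearest neighbours lay 105, 123, 139, 147 and 524 kb away, against a median of 155 kb in all isolated intervals. The largest number, 7 summits, was found on chromosome 14 from 35342606 to 35344645, in an interval of 2040 bp that reached a fold of 13.2. The widest isolated interval, on chromosome 3 from 143689694 to 143692210, spanned 2517 bp, held 6 summits and reached 9.44. It was followed by 2139 kb without a further interval, and its neighbour before it was 123 kb away. An interval of 2104 bp on chromosome 13 from 93878924 to 93881027 held 6 summits, reached 15.6 over a background of 3.92, and had no neighbour for 1413 kb before it and 524 kb after it. Further intervals with 6 summits lay on chromosome 4 from 174089199 to 174091340, with a fold of 12.3, and on chromosome 13 from 45150432 to 45152470, with a fold of 10.7. Among the 5 widest, an interval on chromosome 12 from 80083118 to 80085256 had a fold of only 5.95 with 5 summits, and one on chromosome 11 from 32913865 to 32915915 had 11.7 with 4.

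The most remote and the weakest isolated sites were of ordinary or low height. The most remote interval, on chromosome 13 from 89931548 to 89931892, lay 1605 kb from its nearest neighbour and had a fold of 7.47 with 45 ChIP fragments. The next lay on chromosome 7 from 57711291 to 57711520, beside a gap of 5649 kb, with a fold of 3.24 over a background of 11. On chromosome 7 from 114563024 to 114563191, a site 1501 kb from its neighbour had a fold of 4.66 with 23 fragments. A site on chromosome 5 from 19988255 to 19988540 had a fold of 4.74. One on chromosome 6 from 62995987 to 62996131 had a fold of 3.90 and bordered a gap of 4708 kb. This site and the one beside the gap of 5649 kb lie close to the centromeres of their chromosomes, where unmappable sequence lengthens gaps. The lowest fold, 2.25, was found on chromosome 2 from 169746755 to 169747050 over a background of 12. The 4 next lowest, on chromosomes 12, 7, 21 and 6, ran from 2.33 to 2.47 over backgrounds of 8.54 to 12. All 5 backgrounds were above those of the 10 strongest sites, which were at most 5.0. Both groups were ranked on fold, which the background divides, so this contrast is partly built in.

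The share of isolated intervals differed between chromosomes by more than 10 times. It was highest on chromosome 4, with 192 of its intervals or 11.6% (95% CI 10.1 to 13.3), followed by chromosome 21 with 9.42% (95% CI 6.93 to 12.4), chromosome 13 with 9.38% (95% CI 7.61 to 11.4) and chromosome 6 with 7.40% (95% CI 6.38 to 8.53). It was lowest on chromosome 22, with 9 intervals or 0.667% (95% CI 0.306 to 1.26), chromosome 19 with 0.704% (95% CI 0.411 to 1.12) and chromosome 17 with 1.17% (95% CI 0.809 to 1.64). Chromosome 2 held the largest number, 214. The rule itself selects for sparse binding, so these shares are a description only. Chromosome 4 had 8.65 intervals per Mb, counted from the chromosome start to its last interval, and chromosome 19 had 40.9. Chromosome 22 had 26.3, chromosome 17 had 34.7 and chromosome 13 had 8.34. The length used includes unmappable sequence before the first interval, which can lower the density of some chromosomes more than that of others. Whether the order of the shares follows that of the densities was therefore not tested. Chromosomes 17, 19 and 22 are known to be rich in genes, and chromosomes 4, 13 and 18 to be poor in them.

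Most differences between isolated and other intervals were found within chromosomes too. Isolated intervals had the lower median background, the lower median number of ChIP fragments and the smaller median width on 22 of 22 chromosomes. Their median fold was higher on 19 and lower on chromosomes 6, 14 and 19. On chromosome 20 the medians were furthest apart, at 6.95 in 33 isolated intervals and 5.42 in the others, and on chromosome 17 they were 6.49 in 33 isolated intervals and 5.22 in the others. On chromosome 6 they were 6.04 in 176 isolated intervals and 6.10 in the others. A single summit was more frequent in isolated intervals on 19 chromosomes and less frequent on chromosomes 2, 5 and 20.

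**Figure D4:**
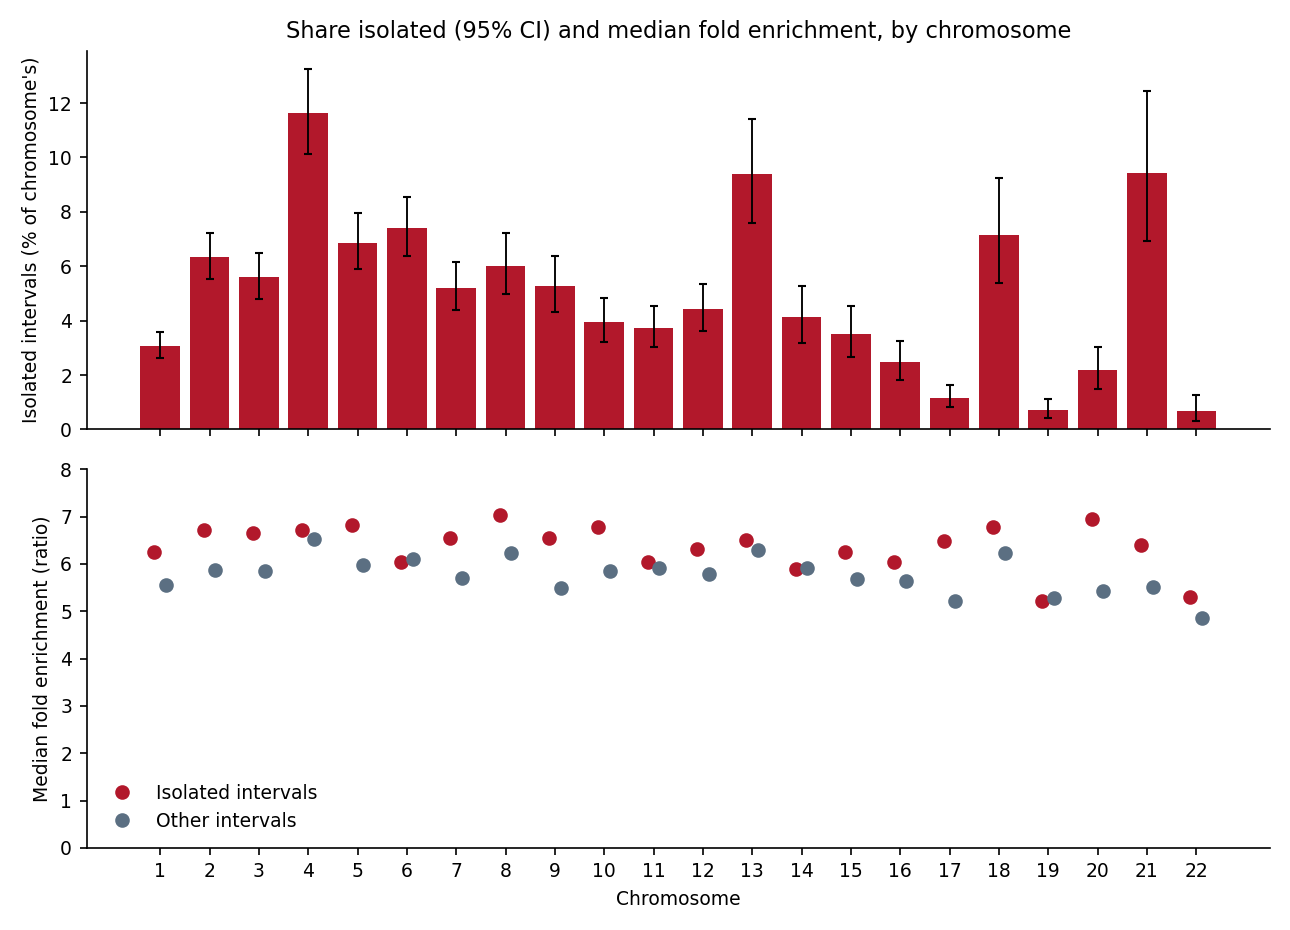
Upper panel, percent of each chromosome's MYCN intervals that were isolated (bars, with exact 95% intervals). Lower panel, median fold enrichment of isolated intervals in red and of other intervals in grey on the same chromosomes. The bars run from 0.667% on chromosome 22 to 11.6% on chromosome 4, and the red point lies above the grey one on 19 of 22 chromosomes.

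Isolated sites stood above their flanking intervals about as often as other sites did. The fold of an isolated site was above that of both flanking intervals in 728 of 2137 cases, or 34.1% (95% CI 32.1 to 36.1), and in 33.2% of the others (95% CI 32.8 to 33.7), against 33.3% of all intervals with 2 neighbours. It was below both in 31.2% of cases (95% CI 29.2 to 33.2) and in 33.4% of the others (95% CI 32.9 to 33.8), against 33.3% of all.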

How the data were processed

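The sensitive and resistant lists were deposited as 1 narrowPeak file each, on hg19. Per the submitters' processing notes, the tools were MACS2 2.1.1, deepTools 2.2.4, Picard, SAMtools 1.3.1 and STAR 2.5.1b. Their settings, and how the 2 ChIP samples of a state were merged, are not given in the sources at hand. Each deposited row is 1 summit with the authors' fold enrichment (a ratio), −log10 p-value, −log10 q-value and a deposited integer score, which equals 10 times −log10 q without its decimals. They were used only to describe and rank peaks within the list.

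Rows with the same interval were collapsed, gaps were measured between interval edges, and positions are counted from 1. Library totals are not in the list. ChIP fragments and local background were solved from the fold and the p-value with the relations of MACS2: 1 scale, 0.641, yielded whole fragment numbers at 64657 of 64657 summits (tolerance 0.0005 in −log10 p). At 24 summits 2 numbers met this and the closer was taken. In these relations, fold is the scaled fragment number plus 1, divided by the background plus 1. The procedure and the rule for isolation were tested on simulated data. The exact fragment number was recovered at 99.2% of simulated summits at a scale of 0.6, and at 100% at scales of 0.73 and 0.88. Neither reads (there were no molecular identifiers) nor neighbouring intervals are independent.

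The isolated set, the comparisons and the measures were chosen with earlier results of these data known. The sites named are the 10 isolated intervals of highest fold, the 5 most remote, the 5 with most summits, the 5 widest, the 5 with most ChIP fragments, the 5 of lowest fold, and 3 on each side of the 100-kb limit. Gene distances, motifs and base composition were not computed, because the genome sequence and annotation of hg19 were not used here. Software was scipy 1.17.1, pandas 2.3.3 and numpy 2.4.6 under Python 3.11.15, with matplotlib 3.10.9 for plots.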

Additional observations from a re-analysis of the deposited data

How the results depend on the processing

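No paired analysis was possible because the peaks of both ChIP samples came in a shared list. Leaving out a replicate was not possible either. The direction of each difference between isolated and other intervals, in median fold, share with a fold of at least 10, median width, share with a single summit, median background and median ChIP fragments, was kept under all alternatives run, but for the single-summit share the difference was within counting error with a gap of more than 50 kb (95% CI 75.6 to 77.8) and with a −log10 q of at least 10 (95% CI 67.8 to 71.4). Within classes of local background, width and single-summit share changed direction, as given above. With a gap of more than 50 kb, 5388 intervals were isolated, with a median width of 244 bp, a single summit in 76.7% (76.5% of the others), a background of 4.0 and 49 ChIP fragments. With more than 200 kb, 676 were isolated, with 214 bp, 85.1%, 2.0 and 38. When only intervals with a −log10 q of at least 5 were kept, isolation was defined anew and 2261 were isolated. They had a median fold of 6.78 (6.07 in the others), 22.2% with a fold of at least 10, 239 bp and 49 fragments. With a −log10 q of at least 10, again with isolation defined anew, 2481 were isolated. Only 1347 of the 2147 reported members reach this value, so many of the 2481 were not members. These 2481 had 8.02 (7.05 in the others), 30.6%, 333 bp, a single summit in 69.6% (68.9% of the others), a background of 5.0 and 68 fragments. Intervals with 1 summit gave 6.18 (5.34 in the others), 16.6%, 202 bp, 2.38 and 37. Of 76 values recomputed, the other 51 stayed within the 95% interval of the reported value or, for counts, within 1.5 times. They came from these settings, from leaving out chromosome ends, gaps over 3 Mb or the first 30 Mb of chromosome 2, from gaps between summits, from the summit of highest −log10 p and from comparing with intervals within 10 kb of another. The last of these changed only the comparison set, so its isolated values could not move. Taking the summit of highest −log10 p could not change the count, the width or the single-summit share. Such values say nothing about stability. The alternatives for motifs, base composition and genes were not run, since they need hg19 sequence and annotation. The represented summit of every isolated interval had at least 13 ChIP fragments, and sites under the list's threshold could break the isolation of a member.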

Other observations

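Isolated intervals often followed each other. Of the 2147, 1340 (62.4%, 95% CI 60.3 to 64.5) stood next to at least 1 other isolated interval, in 481 runs, and 807 stood alone between intervals that were not isolated. Such runs are partly built in, because the gap between neighbouring intervals counts for both. In 40 runs of 5 or more there were 247 isolated intervals. The longest run held 13 isolated intervals on chromosome 21 from 19191067 to 26758575, a span of 7.57 Mb, with folds of 3.53 to 15.6 and a median of 5.65. A second run on chromosome 21, from 28797984 to 30257852, held 9 intervals with a median fold of 6.04, among them the site with a fold of 31.8. On chromosome 4 from 62512518 to 66003032, 9 isolated intervals had folds of 4.81 to 10.4 over a median background of 1.61, and 2 further runs of 8 lay on the same chromosome, from 91048352 to 92992855 and from 116322728 to 118954984. On chromosome 1 from 188139678 to 190447722, 8 isolated intervals had folds of 2.79 to 10.2.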
